A study of Mus musculus with 8 samples.

Results

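The kinesin genes of the mouse were read in the polysomal and non-polysomal RNA of oocytes at nuclear envelope breakdown (NEBD), the step at which the first meiotic division begins. Members were chosen by name alone, as every gene symbol beginning with Kif followed by a digit or by c, which gave 42 rows of the 25574 in the table. One of the 42, Kif4-ps, is a pseudogene and encodes no motor. Fully grown oocytes came from CD1 mice aged 8 weeks that had received 5 IU of pregnant mare serum gonadotropin 46 h earlier. They were denuded, held in 100 µM IBMX (a phosphodiesterase inhibitor that keeps the nucleus intact) and then cultured without it for 180 min. Cycloheximide, which holds ribosomes on mRNA, was then added to all samples at 0.1 mg/ml for 10 min, and each profile used 200 oocytes. Lysates were spun on 10 to 50% sucrose gradients that were cut into 10 fractions, of which fractions 2 to 5 made the non-polysomal (NP) and fractions 6 to 10 the polysomal (P) dataset, with 4 biological replicates of each. RNA was depleted of ribosomal RNA and amplified as cDNA before sequencing with a kit that does not mark strand.

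Kinesins are motors that use ATP to move along microtubules or to shorten them. Those of the spindle separate its poles, push chromosome arms, depolymerise microtubule ends or build the midzone at which the cell divides. Transport kinesins carry organelles, vesicles and RNA, often through light chains or adaptors, and others work in the cilium. The oocyte builds its first meiotic spindle without centrioles, and at this stage it makes no new RNA, so its proteins come from stored mRNA that is recruited to ribosomes in steps. A short U-rich element in the 3′ end of such mRNAs, the cytoplasmic polyadenylation element (CPE), is known for its part in this recruitment.

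The sequences around the CPE are shown for those 6 of the 19 kinesins described one by one in which it was found, since the element is the best known signal for stored mRNA in the oocyte. The motifs TTTTAT and TTTTAAT were searched on the transcript strand only, in the last 150 bases of the 3′ UTR of 1 GENCODE M21 transcript per gene. The second motif can overlap the polyadenylation hexamer AATAAA, which was searched in the last 40 bases. Capitals mark the CPE in 30 bases of the 3′ UTR in the build GRCm38, written 5′ to 3′ on the gene's own strand. In the order shown, 133, 31, 4, 128, 65 and 63 bases lay between the motif and the transcript end. Kif18a and Kif22 had no hexamer in the last 40 bases. The Kif18a transcript read has 3369 bases, but its FPKM was scaled to 9832 bases, so the 3′ end present in the oocyte is not known.
Kif14 (chr1:136531361-136531390, plus strand): ctatgaatggtaTTTTATgatgtaaagttt
Kif18a (chr2:109341699-109341728, plus strand): aatgtgctaataTTTTATtacttggtatat
Kif22 (chr7:127027731-127027760, minus strand): acgtgttgtgtaaatacagtTTTTATtcca
Kif2c (chr4:117159755-117159784, minus strand): aagcactcatgaTTTTATactttcagaaaa
Kifc1 (chr17:33875712-33875741, minus strand): gttgagacatgaTTTTATtgggtgaacaat
Kifc5b (chr17:26932503-26932532, plus strand): agctctaaacggTTTTATtaacttaacggt
Of the 33 tested kinesins with a full window of 150 bases, 13 (39.4%) held a CPE, and so did 2649 of 10504 tested genes (25.2%). Kif22 is not among the 33, because its annotated 3′ UTR has only 62 bases, nor are Kif17 with 65 and Kif13b with none annotated. The hexamer was present in 57.6% of the kinesin windows and in 62.4% of all windows.

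Kifc1 and Kifc5b, minus-end directed motors that focus spindle poles, are near copies of one another, so their values are uncertain wherever reads could be assigned to either. Their transcripts were 96.8% identical over 2312 aligned bases with 45 mismatches, and the longest identical run was 268 bases. Of all windows of 150 bases along the alignment, 10.5% were identical. A stretch that tells them apart is shown with the differing base in capitals, at positions 627 to 656 of the Kifc1 and 632 to 661 of the Kifc5b transcript.
Kifc1: atcgggagaagactCaaacgctggaactgg
Kifc5b: atcgggagaagactGaaacgctggaactgg
The difference is C15G, with positions counted from 1 at the 5′ end of the stretch, Kifc1 first. No other pair of kinesin transcripts was found at 85% identity or more over at least 300 bases. The search started only from long identical stretches and used 1 transcript per coding gene, so it can miss less similar pairs.

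Levels are given as FPKM, read fragments scaled by gene length and library size, as deposited for each library. Every library was scaled to its own total, so a level in P is relative to the other transcripts in P and does not give the share of a gene's mRNA that was on polysomes. The scaling total of a library, worked out from the smallest steps between values, was 1299377 to 7594637 in NP and 2677946 to 4699328 in P. In NP 11703 to 13753 genes were above 0 per library and in P 9139 to 11339. The summed FPKM of 12 oocyte markers was 7094 to 13643 in NP and 9370 to 34492 in P, and all 12 were above 0 in every NP library. Markers of granulosa and cumulus cells summed to 15.3 to 93.9 FPKM in NP and 2.38 to 64.0 in P, carried by Cyp19a1 and Nr5a2, while Foxl2, Inhba and Amhr2 were at 0 in all libraries and Amh, Fshr, Inha and Hsd17b1 at no more than 0.759 in any. Markers of other ovarian and blood cells summed to 12.7 to 63.5 in NP and 6.36 to 77.7 in P, nearly all of it Pecam1, while Col1a1, Ptprc and Hba-a1 were at 0 throughout and Cyp17a1 and Star at 0 in 7 and 5 of the 8 libraries. Fewer residual cells and less RNA per cell cannot be told apart in these pools, and the part of such cells in the kinesin values was not tested.

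Of the 42 kinesin rows, 31 were detected in both datasets by a mean FPKM above 0.1, the level used in the study. Another 3 passed this level only in NP (Kif3c, Kif7 and Kif19a) and 2 only in P (Kif5a and Kif21a). The remaining 6 passed in neither, and 4 of these (Kif12, Kif2b, Kif4-ps and Kif6) were listed at 0 in all 8 libraries, while Kif1a reached at most 0.231 and Kifc2 0.245. Thus 36 of 42 (85.7%) were detected somewhere, beside 14292 of the 25574 genes in the table (55.9%). By role, spindle motors had 12 of 14 tested above 0 in all 8 libraries, beside 6 of 15 transport motors and 3 of 7 motors of cilia, signalling or other roles. Among all genes tested 50.4% were above 0 in every library.

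A few motors carried most of the kinesin signal. In each dataset 7 of the 36 tested kinesins had a mean above 50 FPKM, or 19.4%, beside 14.6% of all tested genes in NP and 12.9% in P. Together the kinesins made up 0.223, 0.274, 0.278 and 0.237% of the summed FPKM in NP replicates 1 to 4 and 0.209, 0.175, 0.629 and 0.136% in P replicates 1 to 4. P replicate 3 stood apart from the other 7 libraries, and Kif17 alone gave 50.5% of its kinesin signal. Without that library the mean share in P was 0.173%, against 0.287 ± 0.230% with it and 0.253 ± 0.0271% in NP (SD, n = 4).

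**Figure D1:**
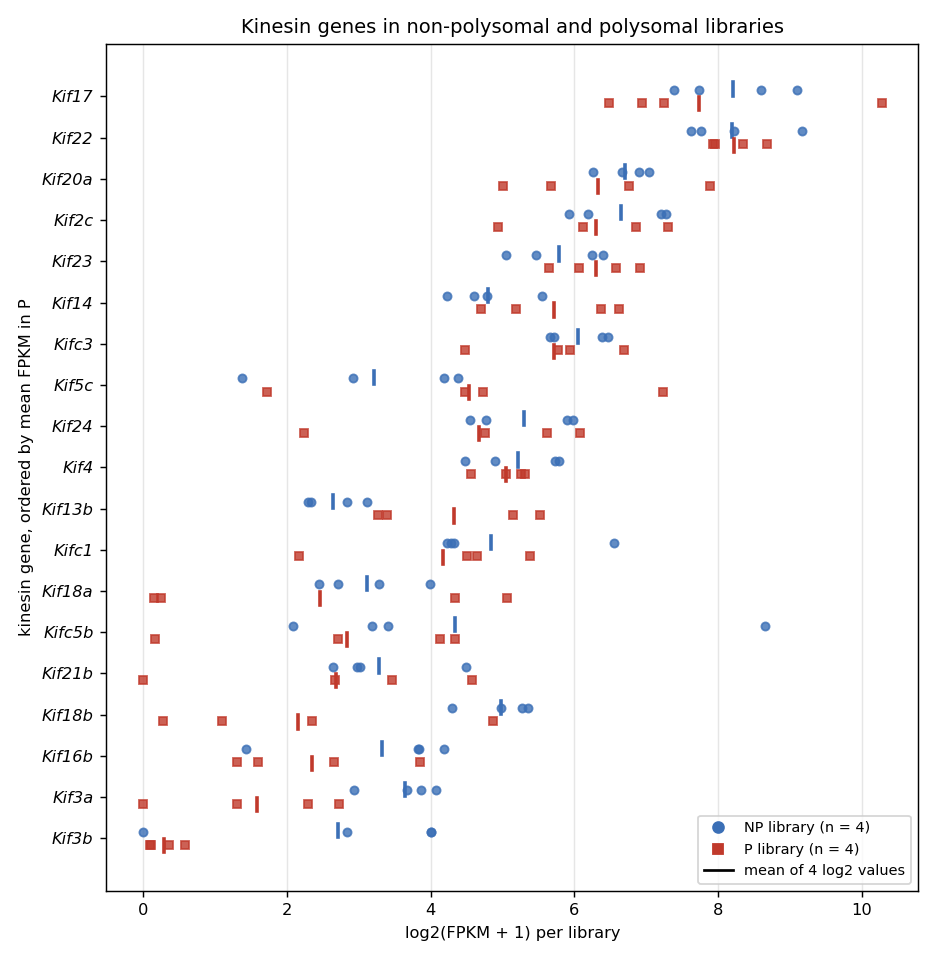
FPKM of the 19 kinesin genes described one by one, as log2(FPKM + 1) on the horizontal axis and ordered by mean FPKM in P on the vertical axis. Blue circles are the 4 NP and red squares the 4 P libraries, and bars mark the mean of the 4 log2 values. Kif22 lies high in both datasets with its P libraries inside the NP span, whereas Kif18a and Kif18b spread widely in P.

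The comparison of P with NP asks whether a motor's mRNA was relatively more abundant among polysome-bound than among unbound transcripts. It was tested with limma on log2(FPKM + 1) over all 14292 genes that passed the level of 0.1, at an adjusted p threshold of 0.1 (Benjamini-Hochberg). No kinesin was called, and 3 of all genes tested were called, a background of 0.021%. Fitting recovered whole reads with voom instead called 136 genes, 134 of them higher in NP, and again no kinesin, with 3 kinesins at an unadjusted p below 0.05 (2 higher in NP and 1 in P), beside 11.7% and 0.728% of all genes in that fit. At an unadjusted limma p below 0.05, 3 kinesins were higher in NP (Kif18b, Kif3b and Kif3a; 8.33% of 36) and 0 in P, beside 9.47% of all genes tested in NP and 0.476% in P. These shares lay close to the background. The fitted change was negative for 25 of 36 kinesins (69.4%) and for 71.4% of all genes, with medians of −0.33 and −0.39 on the log2 scale. This split depended on the scaling. Centring each library on its median moved the median of all genes to 0.57 and that of the kinesins to 0.63 (7 lower and 29 higher in P), and quantile normalization gave −0.02 and −0.01 (18 lower and 18 higher). Changes are therefore best read against the median of all genes, −0.39. Since adjusted p-values were high throughout, the values below describe these libraries, and a p above the threshold does not show that levels were equal. Fold changes are P over NP of FPKM + 1 and understate those of low genes.

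**Figure D2:**
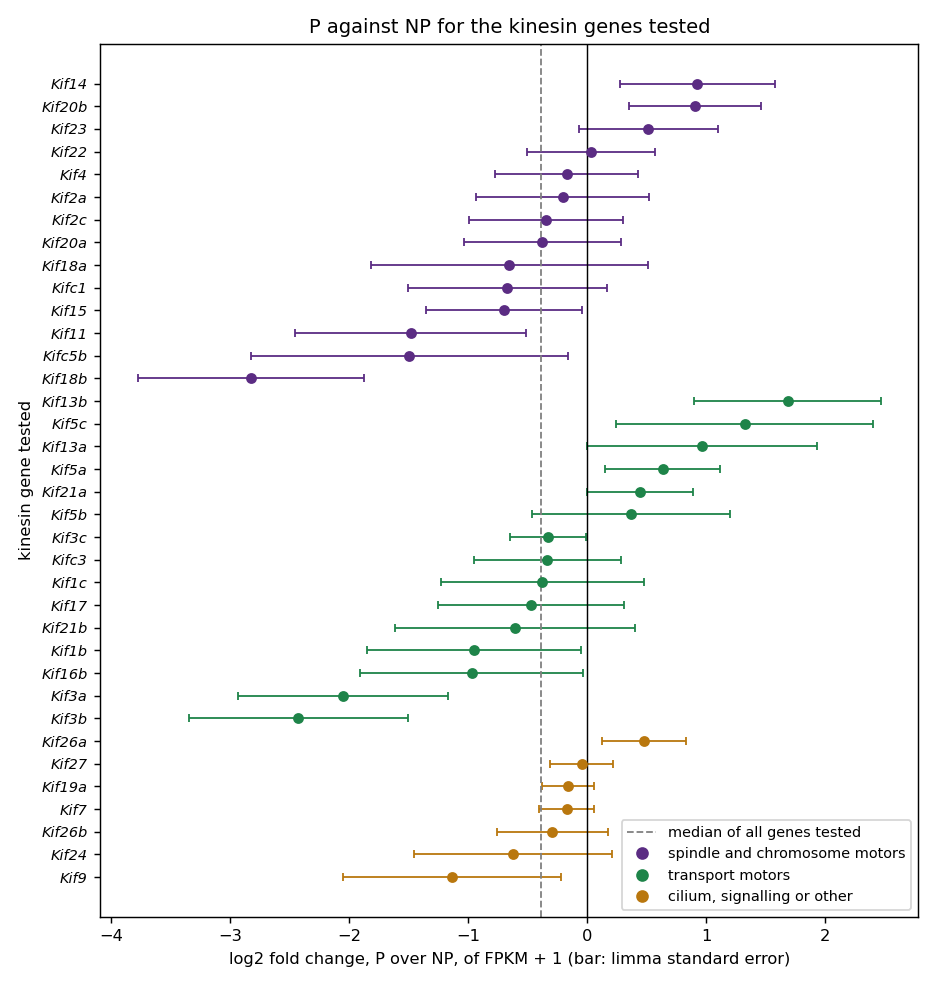
Log2 fold change of P over NP of FPKM + 1 for the 36 kinesin genes tested, with the limma standard error as bars and colours for spindle, transport and other motors. The dashed line is the median of all genes tested, −0.39. Kif13b has the highest estimate, 1.68, and Kif18b the lowest, −2.83.

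Kif22, the chromokinesin that pushes chromosome arms outwards, was among the 2 most abundant kinesins in both datasets. Its FPKM was 299, 573, 217 and 197 in NP replicates 1 to 4 and 324, 242, 409 and 249 in P. All P values lay within the NP range, and the log2 fold change was 0.03 (SE 0.54). Kif4 of chromosome arms and the midzone gave 28.7, 21.2, 54.4 and 51.9 in NP and 37.3, 22.7, 38.9 and 32.0 in P, with all P libraries again inside the NP range. Its change was −0.17 (SE 0.60), and 15.1% of its exon bases overlap another gene, Pdzd11, whose reads cannot be told apart without strand.

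Among the depolymerases of the kinesin-13 family, Kif2c, which acts at centromeres, gave 147, 72.0, 155 and 59.8 FPKM in NP and 157, 29.7, 115 and 68.3 in P. The P range enclosed that of NP, with replicate 2 lowest and replicate 1 highest, and the change was −0.35 (SE 0.65). Kif2a was far lower, at a mean of 2.0 in NP and 1.57 in P, and 19.2% of its exon bases overlap Dimt1. Kif2b was at 0 in every library. Kif24, a relative that acts at centrioles and cilia, was at 58.4, 26.2, 62.3 and 22.5 FPKM in NP and 48.1, 26.0, 66.8 and 3.73 in P. Replicate 4 was its lowest P library and lay below all NP libraries, while P replicate 3 was above all of them. For Kif24 the change was −0.62 (SE 0.83).

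The kinesin-6 motors work at the midzone and in cytokinesis. Kif20a gave 130.1, 75.4, 118 and 100.1 in NP and 237, 31.2, 49.9 and 108 in P, the P range enclosing that of NP. Its dataset means of 106 ± 23.8 and 106 ± 92.7 (SD, n = 4) were close, with a log2 change of −0.38 (SE 0.66), and 29.3% of its exon bases overlap Cdc23. Kif23, the motor of the centralspindlin complex, was at 43.2, 32.2, 74.7 and 83.2 in NP and 48.9, 94.8, 120.1 and 65.8 in P. P replicates 2 and 3 were above every NP library and the other P libraries within their range, with a change of 0.51 (SE 0.59). Kif20b stayed at low levels, with a mean of 0.416 in NP and 1.79 in P, and NP replicate 3 held 86.1% of its NP total.

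Kif14, which acts at the midbody together with citron kinase, had FPKM values of 23.2, 26.7, 45.7 and 17.8 in NP and 24.9, 35.4, 97.4 and 81.5 in P. P replicates 3 and 4 exceeded all NP libraries and P replicates 1 and 2 fell inside their range. The means were 28.4 ± 12.1 and 59.8 ± 35.1 (SD, n = 4), with a log2 change of 0.93 (SE 0.65) and a limma adjusted p of 0.637. Across alternative settings that adjusted p was 0.172 to 0.740.

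The kinesin-8 motors limit microtubule length. Kif18b, which acts on astral microtubules (chr11:102905529-102925124, minus strand), had the lowest unadjusted p of all kinesins. It was at 18.6, 37.7, 30.5 and 39.9 FPKM in NP and at 28.3, 1.14, 4.09 and 0.209 in P. Only P replicate 1 reached the NP range, the other P libraries lying below every NP library. The means were 31.7 ± 9.60 and 8.43 ± 13.3 (SD, n = 4), a log2 fold change of −2.83 (SE 0.95). Its limma p was 0.0102, the adjusted p 0.416 and the exact permutation p 0.0571 (2-sided, 70 unpaired assignments, smallest possible 0.0286). Without P replicate 1 the change was −3.74, and over all alternatives the adjusted p ranged from 0.242 to 0.731. Behind these FPKM values stood 212, 175, 794 and 1082 recovered read steps in NP and 475, 13, 65 and 2 in P.

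Kif18a, the motor that aligns chromosomes, split the P libraries. It gave 8.73, 4.46, 15.0 and 5.54 in NP and 19.3, 0.190, 32.5 and 0.114 in P. P replicates 1 and 3 were above and P replicates 2 and 4 below every NP library, and the change was −0.66 (SE 1.16). Replicates 2 and 4 were also the 2 lowest P libraries of Kif18b.

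The pole-focusing motor Kifc1 was at 18.4, 19.0, 17.7 and 93.1 FPKM in NP and 21.7, 3.48, 24.0 and 40.7 in P, and its near copy Kifc5b at 8.11, 3.22, 9.62 and 403 in NP and 19.3, 0.119, 16.5 and 5.54 in P. NP replicate 4 was far above the other NP libraries for both, and P replicate 2 was the lowest library for both. Summed over the 2 genes, an addition made after the values were seen, the level was 26.5, 22.2, 27.4 and 495.7 in NP and 41.0, 3.60, 40.6 and 46.2 in P. Kifc5b made up 81.2% of the sum in NP replicate 4 and between 3.30 and 47.1% in the other libraries. The dataset mean of Kifc5b in NP, 106 ± 198 (SD, n = 4), rested on that library, which held 95.1% of the NP total. Its log2 change was −1.50 (SE 1.33), or −0.06 without that library, and that of Kifc1 was −0.67 (SE 0.84). The motor of pole separation, Kif11, had means of 9.05 in NP and 2.81 in P, or 4.44 without NP replicate 3 and 1.25 without P replicate 1. Kif15, which shares that task, had means of 2.44 in NP and 0.252 in P, with 96.7% of the NP total in NP replicate 3 and all of the P total in P replicate 4.

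**Figure D3:**
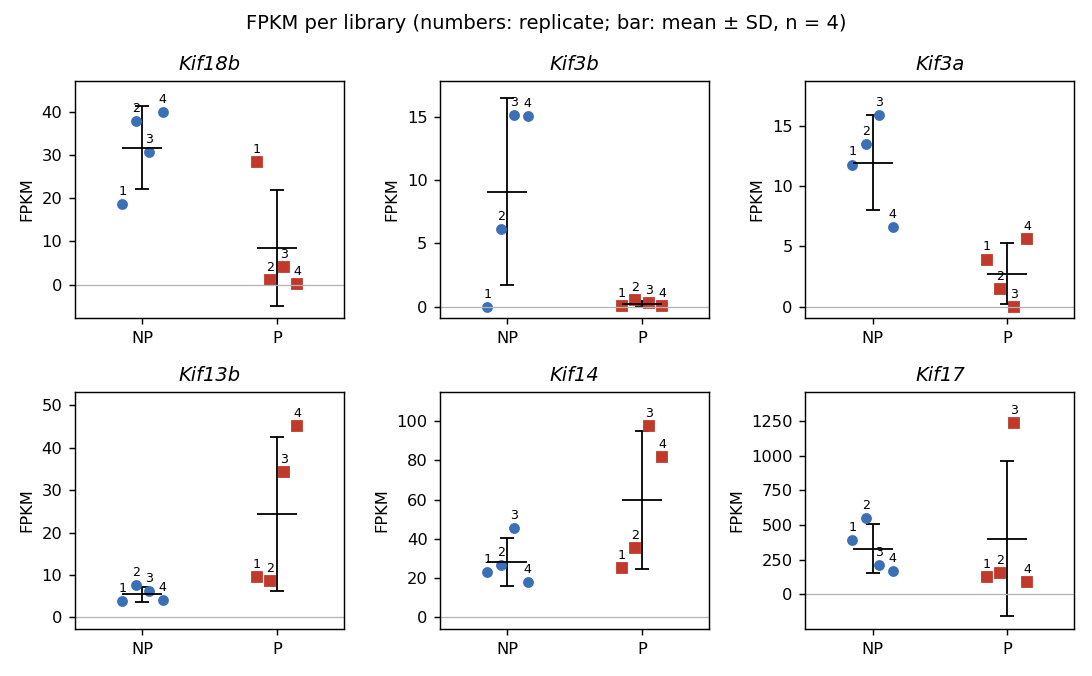
FPKM per library (vertical axis, linear) of 6 kinesin genes in NP (blue circles) and P (red squares), with replicate numbers at the points and horizontal lines and whiskers for mean ± SD (n = 4). Kif3a and Kif13b are the genes whose libraries do not overlap, Kif18b overlaps through P replicate 1, and in Kif17 a single P library at 1239.5 lies above all others.

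Of the 36 kinesins tested, 1 in each direction had no overlap between datasets, Kif3a (NP above P) and Kif13b (P above NP). These placements held for 5.92% and 0.357% of all genes tested. Both are transport motors, as were 15 of the 36, so single genes say nothing about the class. Kif17, another transport motor, was first by mean level in each dataset. By median level in P it came after Kif22 (137 against 286), and Kif22 was the highest kinesin in 5 of the 8 libraries and Kif17 in 2. Kif17, a homodimeric kinesin-2 known for cargo transport in dendrites and cilia (chr4:138250435-138301967, plus strand), gave 389, 549.9, 211 and 167 in NP and 122, 152, 1239.5 and 88.5 in P. P replicate 3 was above every NP library and the other 3 P libraries were below every NP library. The means were 329 ± 175 in NP and 400.4 ± 560.0 in P (SD, n = 4), with P replicate 3 holding 77.4% of the P total, and the log2 change was −0.47 (SE 0.78), or −1.32 without that library. Kif17 thus had a higher mean but a lower fitted log2 level in P.

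Kif3a and Kif3b form the 2 motor chains of the heterotrimeric kinesin-2, which works in cilia and in cytoplasmic transport. Kif3a (chr11:53567379-53601967, plus strand) was at 11.8, 13.5, 15.9 and 6.65 FPKM in NP and at 3.92, 1.48, 0 and 5.62 in P. All 4 NP libraries were above all 4 P libraries, which was so for 5.92% of all genes tested and for no other kinesin, but no longer so after median centring. Its means were 11.96 ± 3.91 and 2.75 ± 2.50 (SD, n = 4), with a log2 change of −2.05 (SE 0.88), limma p = 0.0350, adjusted p = 0.474 and an exact permutation p of 0.0286, the smallest possible. Any gene whose libraries do not overlap takes this permutation p, so it adds nothing to the placement.

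Kif3b (chr2:153291413-153333390, plus strand) was at 0, 6.15, 15.1 and 15.1 in NP and 0.0755, 0.498, 0.279 and 0.0663 in P. NP replicate 1, at 0, lay below all P libraries, and the other 3 NP libraries lay above all of them. The change was −2.43 (SE 0.92), with limma p = 0.0195, adjusted p = 0.425 and an exact permutation p of 0.143. Its P values rested on 2, 9, 7 and 1 read steps, against 0, 45, 619 and 645 in NP. Over all alternatives the adjusted p was 0.330 to 0.750 for Kif3a and 0.339 to 0.734 for Kif3b. The alternative chain Kif3c had means of 0.459 in NP and 0.0694 in P, 86.9% of the NP total lying in NP replicate 4, with 40.7% of its exon bases shared with other genes, and Kifap3, the accessory subunit that binds both chains, was near 0 at 0.0424 in NP and 0.0140 in P.

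Kif13b, a kinesin-3 that carries membrane cargo (chr14:64652531-64806296, plus strand), was the kinesin with the highest fitted fold change. It gave 3.91, 7.69, 6.13 and 4.07 in NP and 9.49, 8.63, 34.3 and 45.1 in P. All P libraries lay above all NP libraries, as for 0.357% of all genes tested and no other kinesin, with P replicates 3 and 4 highest. After median centring its libraries still did not overlap, but then 12.1% of all genes had all P above all NP libraries. The means were 5.45 ± 1.8 and 24.4 ± 18.2 (SD, n = 4), with a log2 change of 1.68 (SE 0.79), limma p = 0.0507, adjusted p = 0.503 and an exact permutation p of 0.0286. The permutation p follows from the absence of overlap. Its adjusted p over all alternatives was 0.129 to 0.731. The steps between its FPKM values matched a transcript of 5603 bases, equal to the length of its annotated transcript without a 3′ UTR.

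The related Kif13a had means of 1.75 in NP and 6.91 in P, with 64.0% of the P total in P replicate 3, and Kif16b, which moves endosomes, was at 13.4, 13.2, 17.2 and 1.71 in NP and 13.5, 2.02, 5.32 and 1.46 in P. NP replicate 4 was far below the other NP libraries of Kif16b, P replicates 1, 2 and 3 lay within the NP range and P replicate 4 below it, and the change was −0.97 (SE 0.94). Kif1b and Kif1c had means of 5.28 in NP and 2.53 in P and of 2.61 in NP and 1.90 in P. The level of Kif1c rested on replicate 1 in both datasets, at 8.83 and 7.31 FPKM, with all other libraries at 1.12 or less.

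Kinesin-1, the main carrier of organelles along microtubules, has 3 heavy chains. Kif5c was at 17.3, 6.57, 19.8 and 1.60 in NP and 25.4, 21.4, 149 and 2.30 in P. P replicates 1, 2 and 3 were above every NP library, most of all replicate 3, and P replicate 4 was within the NP range, giving a change of 1.32 (SE 1.08), or 0.43 without P replicate 3, and a limma adjusted p of 0.657. Kif5b, the widely expressed heavy chain, was low at means of 1.69 in NP and 2.82 in P, which were 0.307 without NP replicate 3 and 0.648 without P replicate 4. Kif5a was above 0 in P replicate 2 alone, at 4.79. The light chains Klc1 to Klc4 had negative estimates of −1.66, −0.21, −2.34 and −1.47, and 3 of the 4 were still negative after quantile normalization or median centring. Of all 14292 genes tested, 7296 were negative after the first and 3857 after the second.

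Kifc3, a minus-end directed motor of cell junctions and the Golgi, gave 82.4, 87.2, 49.7 and 51.9 in NP and 103, 60.6, 21.3 and 53.9 in P. P replicate 1 was above and P replicate 3 below all NP libraries, with a change of −0.33 (SE 0.62). Kif21b, which restrains microtubule growth, was at 7.07, 5.27, 6.89 and 21.4 in NP and 22.9, 10.0, 5.37 and 0 in P. P replicate 4 was at 0 and P replicate 1 above all NP libraries, and the change was −0.60 (SE 1.01). The motors with roles in cilia and signalling other than Kif24 were low, none exceeding a mean of 7.09 FPKM (Kif9 in NP, 4.31 without NP replicate 3), and Kif26a, Kif26b, Kif27, Kif7 and Kif19a had means below 1 FPKM in both datasets.

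**Figure D4:**
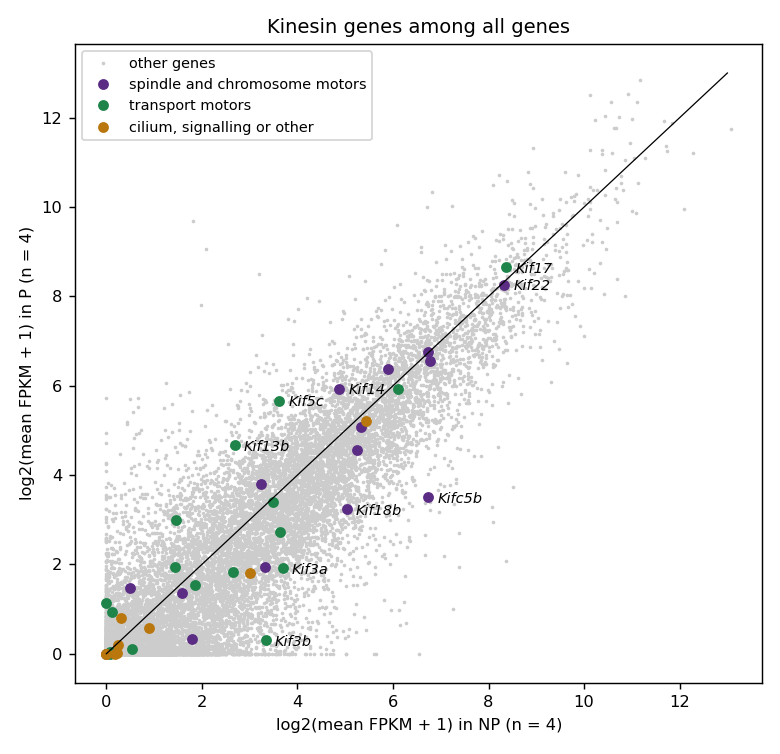
Mean level of each gene in P (vertical) against NP (horizontal), both as log2(mean FPKM + 1) over 4 libraries, with kinesins in colour by role, other genes in grey and a line of equality. Kif17 and Kif22 lie at the top among the kinesins near the line, Kif5c and Kif13b above it, and Kif3b, Kif3a, Kif18b and Kifc5b below it.

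The fitted fold changes were also set beside the CPE. The 13 with a CPE in the full window had a median log2 change of −0.29 (range −1.50 to 0.93) and the 20 without had −0.36 (range −2.83 to 1.32). Estimates were above 0 for 5 of the 13 and 4 of the 20, beside 31.2% of all genes with and 27.8% of all genes without the element. Of the sequences shown first, the one of Kif14 belonged to a gene with a positive and those of Kif18a, Kif2c, Kifc1 and Kifc5b to genes with negative estimates, and Kif22 was near 0. Against the median of all genes, −0.39, Kif14, Kif22 and Kif2c (−0.35) lay above and Kif18a, Kifc1 and Kifc5b below. These are counts of letters in a window, not of sites used.

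Of 51 genes listed as partners of kinesins, from light chains to adaptors and the opposing motor dynein, 50 were in the table and 47 were tested. None was called by limma or by voom. At an unadjusted limma p below 0.05 there were 3, of which Klc3 was higher in NP and Prc1 and Pafah1b1 were higher in P, beside 9.47% and 0.476% of all genes tested. Estimates were negative for 31 of 47, with a median of −0.19, but for 17 after quantile normalization and 12 after median centring. Over all 14292 genes tested, the negative counts were 10209, 7296 and 3857.

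Prc1, which bundles midzone microtubules and binds Kif4, was at 59.8, 148, 401 and 149.6 in NP and 980.3, 381, 656 and 360.1 in P. Only NP replicate 3 overlapped the P range, and the log2 change was 1.84 (SE 0.64), with limma p = 0.0124, adjusted p = 0.416 and an exact permutation p of 0.0857. Of the 8 spindle and midzone partners, 5 had positive estimates and all 8 after quantile normalization or median centring. Negative estimates among all 14292 genes tested also fell, from 10209 to 7296 and 3857. Among the 5 were the microtubule-bundling Nusap1 (1.34 (SE 0.80), means of 33.5 in NP and 86.0 in P) and Tpx2 (1.12 (SE 0.61), means of 35.0 in NP and 80.9 in P), which activates Aurora A on the spindle. P replicate 1 held 56.0% of the P total of Nusap1, whose P mean was 50.5 without that library. Among kinesins named otherwise, the centromere motor Cenpe was at a mean of 11.8 FPKM in P and 5.75 in NP, or 6.77 without P replicate 1 and 1.24 without NP replicate 3. The motor Stard9 was at a mean of 0.914 FPKM in P and 1.71 in NP, or 0.102 without P replicate 4 and 0.790 without NP replicate 2.

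Among the light chains and accessory factors Klc3 was at 15.1, 40.3, 5.46 and 25.04 in NP and 15.4, 8.58, 0.0859 and 0 in P. P replicates 3 and 4 were at or near 0, and P replicates 1 and 2 lay within the NP range, with a change of −2.34 (SE 1.07), limma p = 0.0465, adjusted p = 0.495 and an exact permutation p of 0.143. Next by their mean in NP came Klc4 with 17.3 in NP and 6.69 in P and Klc2 with 13.6 in NP and 11.9 in P, both above Klc3 in P (6.02). Without NP replicate 1 the NP mean of Klc4 was 6.93, and without P replicate 4 its P mean was 1.1. The cargo adaptors with the highest levels were the mitochondrial adaptor Trak1 (means of 97.5 in NP and 41.3 in P) and the mitochondrial GTPases Rhot2 (61.4 in NP and 41.6 in P) and Rhot1 (36.5 in NP and 49.8 in P). Trak1 had a change of −1.25 (SE 0.59) and an adjusted p of 0.503 by limma, the other 2 having −1.13 (SE 0.87) and 0.54 (SE 0.63), and P replicate 2 held 69.7% of the P total of Rhot2.

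Dynein and dynactin, which move cargo the opposite way, had 26 of 28 genes tested, 19 with negative and 7 with positive estimates. The negative count was 12 after quantile normalization and 7 after median centring, and over all genes it fell too (10209, 7296 and 3857 of 14292). The highest by their mean in NP were Actr1a, the filament of dynactin, with means of 335 in NP and 334 in P, Dynlrb1 with 297 in NP and 217 in P, and Dynlt1b with 185 in NP and 64.6 in P. Dynlt1b is a member of a multigene family whose reads may be split, NP replicate 4 held 58.0% of its NP total, and in P it was below Bicd2 (142) among others. P replicate 3 held 64.6% of the P total of Bicd2, whose P mean was 67.2 without that library. Pafah1b1, the dynein regulator also known as Lis1, was at 5.76, 6.72, 21.5 and 12.5 in NP and 33.6, 35.1, 22.2 and 38.6 in P. All its P libraries were above all NP libraries, with a log2 change of 1.55 (SE 0.67), limma p = 0.0373, adjusted p = 0.479 and an exact permutation p of 0.0286. Among the 47 partners tested it was the only one so placed. Dynlt1a, named after its values were seen, was the only one with all NP above all P libraries (80.6, 76.8, 68.9 and 187 in NP and 56.5, 16.8, 42.1 and 62.4 in P). Without overlap the exact permutation p is the smallest possible by construction, so that of Pafah1b1 adds nothing to its placement. All P above all NP held for 0.357% and the reverse for 5.92% of all genes tested. After median centring these shares were 12.1% and 0.812%, and neither partner was looked at there. Dynlt1a is of the same family as Dynlt1b, so its reads may also be split.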

How the data were processed

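Per the labels and the methods of the study, reads were trimmed with Trim Galore 0.4.1, checked with FastQC 0.11.5 and mapped to GRCm38 with HISAT2 2.0.5. The authors quantified genes as FPKM in Seqmonk, and the deposited FPKM values of all genes in 4 NP and 4 P libraries were used here as linear values. Columns of the authors' own DESeq2 comparison (fold changes and p-values) were not used, and the DESeq2 test was not rerun because FPKM values are not counts.

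The 14292 genes whose mean exceeded 0.1 FPKM in NP or P were log2-transformed after adding 1 and compared with limma 3.58.1 (lmFit and eBayes with trend, 2-sided) in R 4.3.3, with Benjamini-Hochberg adjustment over all of them and a threshold of 0.1. The fit was also run on simulated counts with known changes to check the code. Their spread was set and not matched to these libraries, so that run says nothing about power here. Exact permutation tests used all 70 assignments of 8 libraries and ignored any pairing by gradient. Where the libraries of a gene do not overlap, their p is the smallest possible, 0.0286, by construction. Since the FPKM of a gene moves in steps of 1 read, whole steps were recovered for 15584 of 15585 genes above 0. The tolerance was 0.01 of a step plus 2e-06 per step counted. The annotated length was used for 6968 genes and a searched length for 8616. A searched length was 1 from 100 to 30000 bases that made all steps whole, so this recovery rate does not show that it is right. The summed steps were 1.35 to 1.78 times the recovered library number, so a step may stand for a read or a mate of a pair. These steps were fitted with voom. The depth limits low genes, for which 1 step in a gene of 1 kb was worth 0.132 to 0.770 FPKM.

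Members were given value by value when their mean FPKM was above 10 in a dataset, their unadjusted limma p was below 0.05 or their libraries did not overlap (19 genes), and others by counts, ranges and single values that complete a subfamily. Of the partners, the 3 highest of each subgroup and those with an unadjusted p below 0.05 were named, and others only to complete a complex. Members, roles and lists were chosen with earlier results of these data known. Transcripts were read from GENCODE M21 and compared with blastn 2.17.0. Overlap of exons was counted on either strand, since the libraries do not mark strand. Alternatives were another pseudocount, other filters, quantile normalization, median centring, a replicate block, voom and leaving out each library in turn.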

Additional observations from a re-analysis of the deposited data

Results flagged for a closer look

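In groups of 4 libraries, 1 library was set apart from the rest when its gap to the nearest other, as a share of the whole range on the log2(FPKM + 1) scale, exceeded Dixon's 95% critical value. It was met in 12 of 70 groups of tested kinesins. In 7 of these the other 3 libraries were at 0, so that any value above 0 meets it by construction and no chance rate applies. In the other 63 groups it was met 5 times, where values with a normal spread would give about 1 in 20. That rate may not hold here. For Kif15 and Kif20b in NP and Kif1c in P the other libraries lay at or near 0, which draws them together on this scale. NP replicate 4 stood apart for 3 genes. Kifc1 was at 93.1 FPKM there, with 17.7 to 19.0 in the other NP libraries. Kif16b was at 1.71, with 13.2 to 17.2 in the others, and Kif7 was at 0.699, with the others at 0. NP replicate 3 held Kif15 at 9.44 FPKM, with 0.0273 to 0.160 in the others, and Kif20b at 1.43, with 0 to 0.118. NP replicate 2 was the only NP library with Kif19a, at 0.568.

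P replicate 1 stood apart for Kif1c, at 7.31 FPKM with 0.0857 to 0.103 in the other P libraries, and it was the only P library with Kif27, at 0.572, and with Kif21a, at 3.65. Kif5a was above 0 only in P replicate 2 among the P libraries, at 4.79, Kif7 only in P replicate 3, at 0.0497, and Kif15 only in P replicate 4, at 1.01.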

How the results depend on the processing

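No kinesin and no partner gene was called under any of the 15 alternatives to the limma fit. Of 285 estimates for the 19 genes described one by one, 261 had the sign given in the report, and the smallest adjusted p was 0.129. The number of all genes called, 3 in the report, was 5 with a pseudocount of 0.1, 5 with a mean FPKM above 1, and 0 without a filter, after quantile normalization or after median centring, 136 by voom, and 0 to 5 when 1 library was left out (0 without any 1 NP library or P replicate 3, 5 without P replicate 1). The median kinesin change of −0.33 was −0.010 after quantile normalization, 0.63 after median centring, −0.65 by voom, and −0.56 (without P replicate 1) to −0.15 (without P replicate 4) when 1 library was left out.

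Replicate numbers were shared by the datasets, but no source used here says whether equal numbers share a gradient. Deviations of same-numbered libraries correlated at 0.0518 to 0.251 and of others at −0.135 to 0.136 over 11374 genes, and 7 of the 8 libraries correlated best with their own number, a hint from the data. Each gradient gave fractions to both datasets, so the libraries come in pairs, but which ones belong together is not stated. Equal numbers were therefore not taken as pairs in the main fit, and permutations ignored them. Permutations within pairs would have fewer than 70 assignments, so their smallest possible p would lie above 0.0286. A fit with a replicate block called 1 gene in all and 0 kinesins, with a kinesin median of −0.33. Read by number, P was above NP in 4 of 4 for Kif13b, Kif14 and Kif5c (2.20% of all genes) and below in 4 of 4 for Kif1b and Kif3a (16.5%).

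Median centring turned the sign of Kif17 (0.49), Kif20a (0.58), Kif2c (0.61), Kifc3 (0.62), Kif24 (0.33), Kif4 (0.78), Kifc1 (0.29), Kif18a (0.30) and Kif21b (0.35), and quantile normalization that of Kif4 (0.14), Kif18a (0.074) and Kif21b (0.0014). The sign also turned when 1 library was left out, with ranges of −0.16 to 0.35 for Kif22, −0.90 to 0.064 for Kif20a, −0.68 to 0.11 for Kif2c, −0.66 to 0.081 for Kifc3, −1.09 to 0.19 for Kif24, −0.42 to 0.017 for Kif4, −1.53 to 0.11 for Kif18a and −1.24 to 0.29 for Kif21b. The change of Kifc5b was −0.06 without NP replicate 4 and that of Kif5c 0.43 without P replicate 3.

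Kinesins detected only in NP, 3 in the report, were 1 to 5 when 1 library was left out (1 without NP replicate 4, 5 without P replicate 1), and those only in P, 2 in the report, were 1 to 3 (1 without P replicate 1 or 2) and 1 when 3 libraries had to exceed 0.1. Kinesins with all NP above all P libraries numbered 1 to 3 (3 without NP replicate 1, 2 without NP replicate 4 or P replicate 1, 3 or 4), and with all P above all NP 1 to 3 (2 without NP replicate 3, 3 without P replicate 4). Median centring gave 0 and 5 kinesins, beside 0.812% and 12.1% of all genes, and by its construction it also moves values listed at 0. Where the cause of a change is not named it was not tested.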

Other observations

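Over the 36 kinesins tested, the log2 change of P over NP and the length of the annotated transcript had a Spearman rho of 0.41, with 0.42 for the coding length and 0.00 for the 3′ UTR. The mean level in NP and the transcript length had a rho of −0.50, and the mean level in P −0.32. These are descriptions across genes that share the same 8 libraries, amplified cDNA and 1 gene model each. FPKM is itself divided by gene length. No such value was computed over all genes, so the relation cannot be called particular to kinesins. The study looked at transcript length against its P/NP ratio and reported no correlation.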
